A study of Mus musculus with 10 samples.

Results

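The members described here are the genes that encode the proteins of the cytosolic ribosome. They were chosen by name, as protein-coding genes whose symbol is Rpl or Rps followed by a number (with a, l or x after it where present), together with Rplp0, Rplp1, Rplp2 and Rpsa. One row was kept for each symbol, and a mean normalised value of at least 10 over the lines was required. All 80 such genes of the annotation were in the table and all 80 passed, so none was lost to the filter on low values. They are 49 genes of the large subunit and 31 of the small subunit, of 20206 genes in the table and 14354 with a mean of at least 10. A further 2 rows with a matching symbol, Rps4l and Rpl6l, are pseudogenes by annotation and were left out.
RNA was sequenced from 10 mouse embryonic stem cell (ESC) lines, which are cultures derived from the inner cells of blastocysts and able to form all tissues of the embryo. Of these, 5 lines came from blastocysts of C57BL/6 mothers, aged 7 to 9 weeks at mating, that were fed an isocaloric low protein diet (LPD, 9% casein) from mating until embryonic day 3.5. The other 5 came from mothers fed the normal protein diet (NPD, 18% casein) over the same days. All fathers were C57BL/6, all lines are labelled male and wild-type, all were derived on feeder cells, and RNA was taken from cultures without fibroblasts. The diet therefore reached the mother and the embryo before derivation, and the cells measured had since been kept in culture. The lines are LPD lines 1, 4, 6, 20 and 40 and NPD lines 8, 15, 21, 36 and 51, each a single library and, by the study's methods, from a different mother, and values below are listed in that order. The comparison asks whether maternal diet before implantation left a difference in the RNA of the derived cells.
Ribosomal proteins form, with the ribosomal RNAs, the subunits that read mRNA (small) and join amino acids (large). Each protein is needed in about equal amounts, and in vertebrates most of their mRNAs begin with a C followed by a run of pyrimidines, the 5′ terminal oligopyrimidine (TOP) motif, through which mTOR and Larp1 control their translation together. Most of the genes have left many processed pseudogenes in the mouse genome, and a few have paralogs that are mainly used in testis or muscle or are induced by p53. Fast growing cells such as ESC devote a large share of their mRNA to them.
The shared start of these genes is visible in their sequences. The RefSeq promoter table (GRCm38.p6) held 60 of the 80 genes, with 72 start sites. A run of at least 8 bases of C or T on the sense strand, between 20 bases before and 50 bases after the start, was present in 49 of these 72 promoters (68.1%), against 25.4% of all 32851 promoters in the table. The median longest run in that window was 10 bases in the ribosomal protein genes and 6 bases over all promoters. Over 250 bases before to 50 after the start, on both strands, the letters CCGGAAG (a core bound by ETS factors) were found in 36.1% of the 72 promoters and in 8.86% of all, and AAGATGG (a core bound by YY1) in 15.3% and 6.34%. The letters TATAAA were found in 8.33% and 13.6%. These matches are a description of the letters and not of binding.
The 8 promoters printed here run from 60 bases before to 30 bases after the annotated start, 5′ to 3′, with the longest run of C or T that begins within 20 bases before the start or later in capitals. They stand for 4 genes that followed the other members closely or carry a known role (Rps6, Rplp2, Rpl28 and Rpl38), for 1 paralog that p53 induces (Rps27l), and for 3 of the members that followed the others least (Rpl10, Rpl10l and Rpl3l). The positions are Rps6 at chr4:86857338-86857427 on the reverse strand, Rplp2 at chr7:141447591-141447680 on the forward strand, Rpl28 at chr7:4792905-4792994 on the forward strand, Rpl38 at chr11:114668520-114668609 on the forward strand, Rps27l at chr9:66946026-66946115 on the forward strand, Rpl10 at chrX:74270756-74270845 on the forward strand, Rpl10l at chr12:66284372-66284461 on the reverse strand and Rpl3l at chr17:24727766-24727855 on the forward strand. Rps27l and Rpl3l have 2 annotated starts, and the one with the longer run is shown.
Rps6: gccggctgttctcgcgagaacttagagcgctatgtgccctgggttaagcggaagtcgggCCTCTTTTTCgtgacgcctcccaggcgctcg
Rplp2: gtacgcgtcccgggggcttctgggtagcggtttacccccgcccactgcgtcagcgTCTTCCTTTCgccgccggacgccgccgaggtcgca
Rpl28: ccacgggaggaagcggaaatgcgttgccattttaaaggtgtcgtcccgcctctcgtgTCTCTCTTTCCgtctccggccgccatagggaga
Rpl38: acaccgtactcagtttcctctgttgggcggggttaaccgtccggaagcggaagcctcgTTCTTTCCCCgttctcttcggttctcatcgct
Rps27l: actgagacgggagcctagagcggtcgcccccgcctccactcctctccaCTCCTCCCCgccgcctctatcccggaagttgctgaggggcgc
Rpl10: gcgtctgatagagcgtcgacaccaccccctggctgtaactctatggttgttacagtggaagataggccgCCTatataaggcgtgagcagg
Rpl10l: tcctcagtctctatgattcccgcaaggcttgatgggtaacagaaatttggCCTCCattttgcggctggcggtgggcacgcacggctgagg
Rpl3l: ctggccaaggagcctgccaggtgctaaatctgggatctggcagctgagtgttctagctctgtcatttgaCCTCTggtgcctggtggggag
In Rps6, Rplp2, Rpl28 and Rpl38 the run spans the start site and is 10 or 11 bases long. In Rps27l it is 9 bases long and lies just before the start. Among runs from 20 bases before the start to the end of the stretch shown, the longest is 3 bases in Rpl10 and 5 bases in Rpl10l and Rpl3l.
The data are normalised estimated read counts per gene, scaled between lines by the authors. Each NPD line held between 20390269 and 23181131 read equivalents (its summed values over what 1 read was worth in it), against 21886182, 5848707, 12346341, 24171767 and 11249389 in the LPD lines. The lowest value of any member in any line still stood for 26.1 reads, so depth limits these genes less than most. The ESC markers (Pou5f1, Sox2, Nanog, Zfp42, Esrrb and Dppa5a) summed to between 71686 and 97248 per line, all 6 being detected. Markers of fibroblasts summed to between 307 and 3250.5 in LPD lines and between 394 and 5484 in NPD lines, those of primitive endoderm to between 547 and 3880 and between 288 and 4427, and those of trophectoderm to between 2318 and 6134.5 and between 2515 and 5071.5. None of these markers was listed at 0 in every line. The trophectoderm sum came mostly from Tfap2c (mean 2499.9 over the 10 lines) and Krt18 (763). Eomes averaged 323, Krt7 146, Cdx2 26.3 and Elf5 3.55. The fibroblast sum was highest in NPD line 15 (5484), LPD line 6 (3250.5) and NPD line 8 (2059), followed by NPD line 36 (1078.5). The Y-linked gene Ddx3y stood at 7.70 in NPD line 15 and 174 in LPD line 4, against 1110 to 1493 in the other lines. X-linked genes outside the members had a median log2 deviation of 0.46 in NPD line 15 and -0.02 in LPD line 4. Only NPD line 15 thus departed from the other lines on both counts. The sex of LPD line 4 is not settled by these values and was not tested. Results are also given without these 2 lines. Cell number of a type and RNA per cell cannot be told apart in bulk RNA.
The ribosomal protein genes were among the most abundant mRNAs of the cells. Together they took 9.43%, 8.29%, 8.43%, 8.32% and 10.4% of the total normalised value in the LPD lines and 8.07%, 9.00%, 9.74%, 7.92% and 8.66% in the NPD lines. The mean was 8.96% ± 0.907 in LPD lines and 8.68% ± 0.736 in NPD lines (SD, n = 5 each), so the diets overlapped. The highest line, LPD line 40, held 1.41 times the member total of the lowest, NPD line 36. The mean value of a member over the lines ran from 54.6 (Rpl3l) to 67922 (Rps2), with a median of 17740.
Per length of transcript, the levels of most members lay close together. On the scale of normalised value per kb of the shortest principal transcript, the median was 24351 and the interquartile range of the members ran from 17505 to 32629. The highest were Rps2 at 68058, Rplp1 at 63717 and Rpl41 at 62777. Rps2 lies near the channel where mRNA enters the small subunit, Rplp1 is part of the P stalk that recruits translation factors, and Rpl41 encodes the shortest ribosomal protein. Lowest were Rpl3l at 39.7, Rpl10l at 550.1 and Rpl5 at 606, followed by Rpl39l at 742. Rpl3l, Rpl10l and Rpl39l are the paralogs of Rpl3, Rpl10 and Rpl39 known from muscle or testis. Rpl5 is a full subunit protein, and most of the value summed over it and its copies lay in the row of a pseudogene, described with the copies. Rps20, at 4485 per kb, has an annotated transcript of 3706 bases, longer than its coding part needs, which lowers its value on this scale.
Large and small subunit genes moved together from line to line. As the median deviation of the members of a line from each gene's median over the 10 lines, on the log2 scale, LPD line 40 stood at 0.28, LPD line 1 at 0.07, LPD line 20 at 0.03, LPD line 6 at -0.05 and LPD line 4 at -0.09. Among NPD lines, line 21 stood at 0.20, line 15 at 0.01, line 51 at 0.0036, line 8 at -0.15 and line 36 at -0.18. LPD line 40 and NPD line 21 were thus high and NPD lines 36 and 8 low, with the other 6 lines between them. In LPD line 40, 76 of 80 members were above their own median, and 66 had their highest value there. In NPD line 21, 77 members were above their median, and in NPD lines 8 and 36, 76 and 77 were below it. The lowest value was in NPD line 36 for 42 members, in NPD line 8 for 20, in LPD line 4 for 9, in LPD line 6 for 8 and in NPD line 15 for 1.

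**Figure D1:**
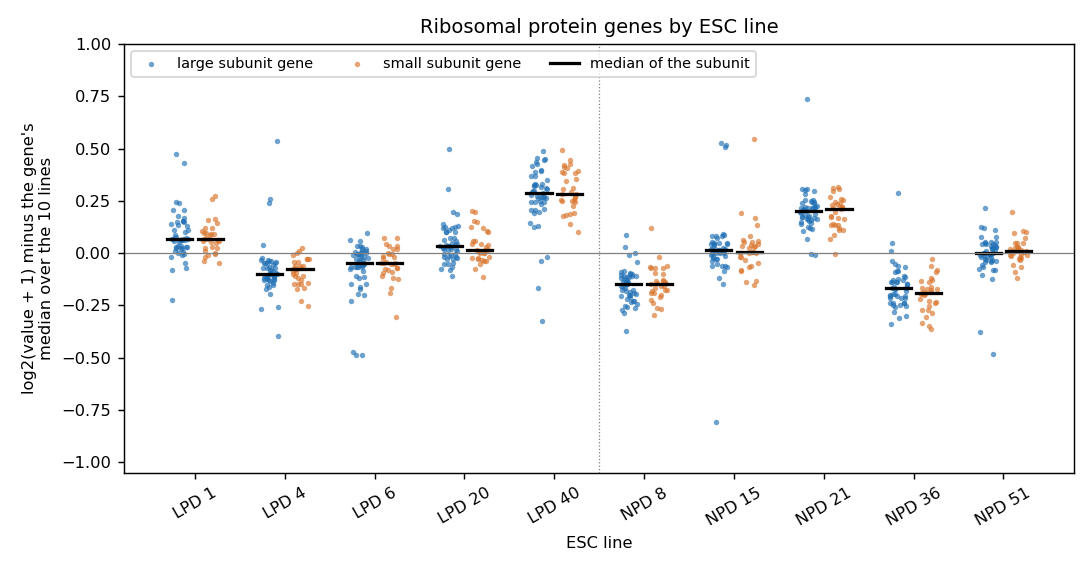
Each point is a ribosomal protein gene in an ESC line, as log2(value + 1) minus the gene's median over the 10 lines, with large subunit genes in blue, small subunit genes in orange and black bars for the medians. The medians of the large and the small subunit stand at 0.29 and 0.28 in LPD line 40 and at 0.20 and 0.21 in NPD line 21, and below 0 in NPD lines 8 and 36.

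The difference between the subunits was far steadier than their level. The mean log2 value of large subunit genes minus that of small subunit genes was -0.47, -0.47, -0.50, -0.46 and -0.51 in the LPD lines and -0.49, -0.48, -0.47, -0.44 and -0.50 in the NPD lines. It averaged -0.48 ± 0.02 in LPD lines and -0.47 ± 0.02 in NPD lines (SD, n = 5 each), and the diets overlapped. The size of this difference is not that of a typical gene. The large subunit mean is lowered by the paralogs Rpl3l, Rpl10l and Rpl39l, with mean values of 54.6, 563 and 408. By the median of the members' mean values, the large subunit stood at 16906 and the small subunit at 18319. Within a diet the SD between lines was 0.15 for the large subunit and 0.15 for the small subunit, against 0.02 for their difference. The large subunit held between 57.7% and 58.5% of the member total in every line. Across the 10 lines, Pearson's r between the subunit means was 0.990, as a description of values that share libraries and scaling.

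**Figure D2:**
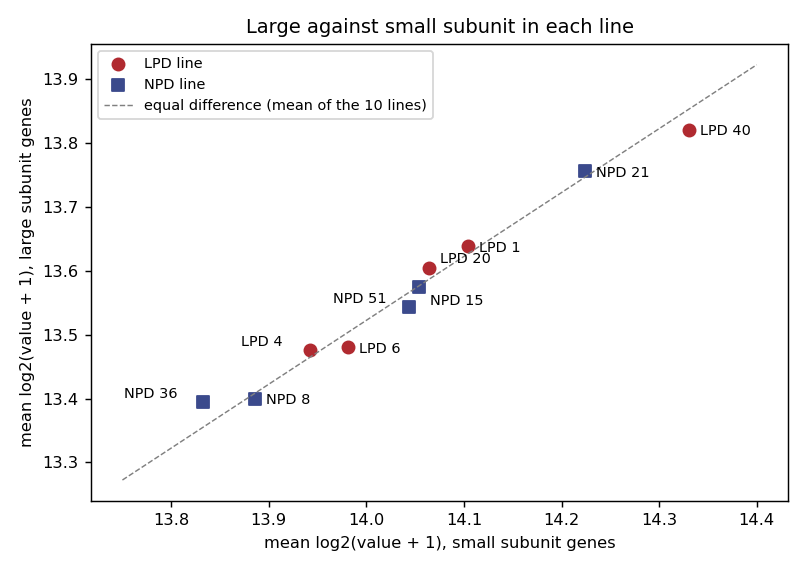
Mean log2(value + 1) of the 49 large subunit genes against that of the 31 small subunit genes in each ESC line, with LPD lines as red circles, NPD lines as blue squares and a dashed line of equal difference. The 10 lines lie along the dashed line, from NPD line 36 at the lower left to LPD line 40 at the upper right, and the diets are mixed along it.

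The common level of a line carried most of the variation among the members. It held 62.6% of the variance of the log2 values over lines after each gene was centred, and 75.7% for the 76 members other than the paralogs Rpl3l, Rpl10l, Rpl39l and Rps27l. The median of Pearson's r between pairs of members was 0.83 over the 10 lines. Against the mean of the other members, r was above 0.9 for 50 of the 80 genes, with Rpl13 (0.990) and Rps6 (0.982) among the highest. It was under 0.5 for 5 genes, namely Rpl10l (-0.165), Rpl39l (0.110), Rpl3l (0.154), Rpl10 (0.348) and Rpl5 (0.372). The members' SD over the lines had a median of 0.17 on the log2 scale, close to the 0.17 of 3761 other genes with a mean of at least 1000.
Short transcripts outside the members had the same pattern over the lines. The 5 with the highest Pearson's r to the member mean were Uqcc2 (0.979), Cox7c (0.974), Gm15500 (0.973), Fau (0.968) and Uqcr11 (0.966), over 10 lines. Fau encodes a small subunit protein as a fusion, Gm15500 is a copy of Rpl5, and Uqcc2, Cox7c and Uqcr11 belong to the mitochondrial respiratory chain or its assembly. The 277 non-members with a mean of at least 1000 and a transcript of at most 1000 bases had a median deviation of 0.27 in LPD line 40, 0.15 in NPD line 21, -0.15 in NPD line 8 and -0.13 in NPD line 36, with r = 0.959 to the member mean. Those of over 4000 bases, 1205 genes, stood at -0.09 in LPD line 40 and at 0.05 and 0.03 in NPD lines 8 and 36. The mean of 15 other TOP genes followed the members less closely (r = 0.729), with single genes from -0.30 (Nap1l1) to 0.90 (Eif3f). Their median deviation was 0.12 in LPD line 20 and 0.09 in LPD line 40. The ESC marker sum also moved with the members, being highest in LPD line 40 (97248) and NPD line 21 (94842) and lowest in NPD lines 36 (71686) and 8 (72720). Single markers differed, with r to the member mean of 0.83 (Dppa5a), 0.79 (Pou5f1), 0.69 (Zfp42), 0.56 (Nanog), 0.21 (Sox2) and -0.18 (Esrrb). What part transcript length or the ESC markers have in the line pattern was not tested.

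**Figure D3:**
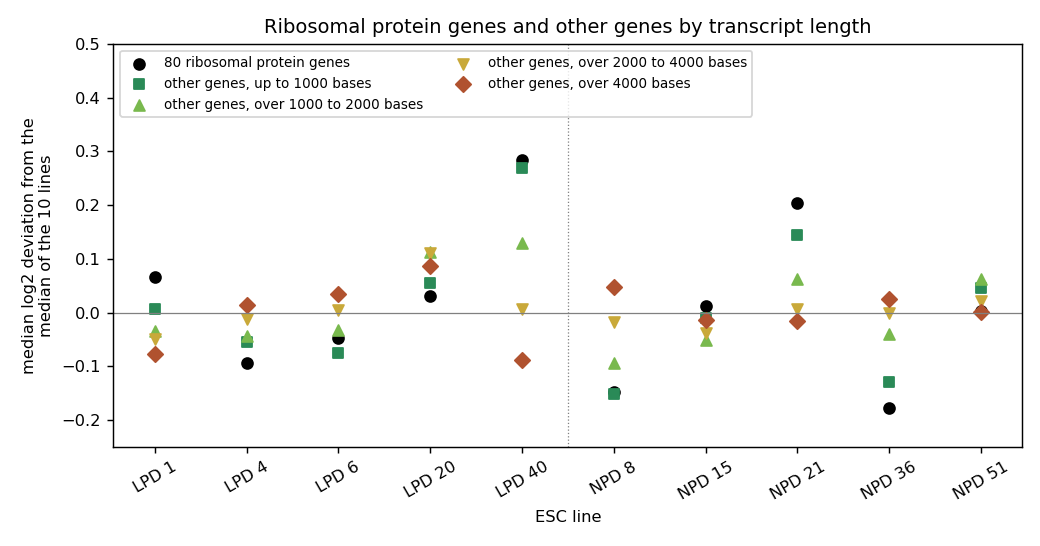
Median log2 deviation from the median of the 10 lines, by ESC line, for the ribosomal protein genes and for non-members with a mean of at least 1000 in classes of transcript length. The class of at most 1000 bases follows the ribosomal protein genes, reaching 0.27 in LPD line 40, while the class of over 4000 bases stands at -0.09 there.

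Between the diets, the members leaned to one side by a small amount. Their common lean was not tested, and the tests below are of single genes. The log2 fold change (LPD minus NPD, on log2(value + 1)) was above 0 in 73 of 80 members, 44 of 49 large and 29 of 31 small, against 50.5% of all genes tested. Its median was 0.07 for the large subunit and 0.07 for the small subunit, against 0.0020 for all genes tested, and the interquartile range of the members ran from 0.05 to 0.11. At an unadjusted limma p under 0.05, 0 of 80 members were higher in LPD (2.84% of all genes) and 0 were lower (2.18%), so 0 passed in either direction against 5.02% of all genes. At an adjusted p under 0.1 there were 0 members, and 0.0% of all genes. In 0 members did the 5 LPD lines lie wholly above or below the 5 NPD lines, against 1.02% of all genes. By the two-sided exact permutation test, whose smallest possible p is 0.00794, 1 member had a p under 0.05, against 5.34% of all genes, and that member was Rpl5. Because the members rise and fall together with the line, the 73 are not separate observations. Non-members of at most 1000 bases had median deviations of 0.0059, -0.05, -0.07, 0.05 and 0.27 in the LPD lines. In the NPD lines they stood at -0.15, -0.01, 0.15, -0.13 and 0.05. A lean particular to the members is therefore not shown.
Single lines set the size of this lean. Without LPD line 40, 51 members were above 0 and the median of the members was 0.02. Without NPD line 21, 76 were above 0 and the median was 0.13. Leaving out NPD line 8 gave a median of 0.05 with 63 above 0, NPD line 36 gave 0.04 with 64, LPD line 4 gave 0.11 with 75, and LPD line 6 gave 0.11 with 74. With each line scaled to the same total the median was 0.04 with 67 above 0, while the median of all genes tested was -0.03. After quantile normalisation it was 0.02 for the members, with 56 above 0, and -0.01 for all genes tested. Without LPD line 4 and NPD line 15, the 2 lines with low Ddx3y, the median of the members was 0.12 with 76 above 0.

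**Figure D4:**
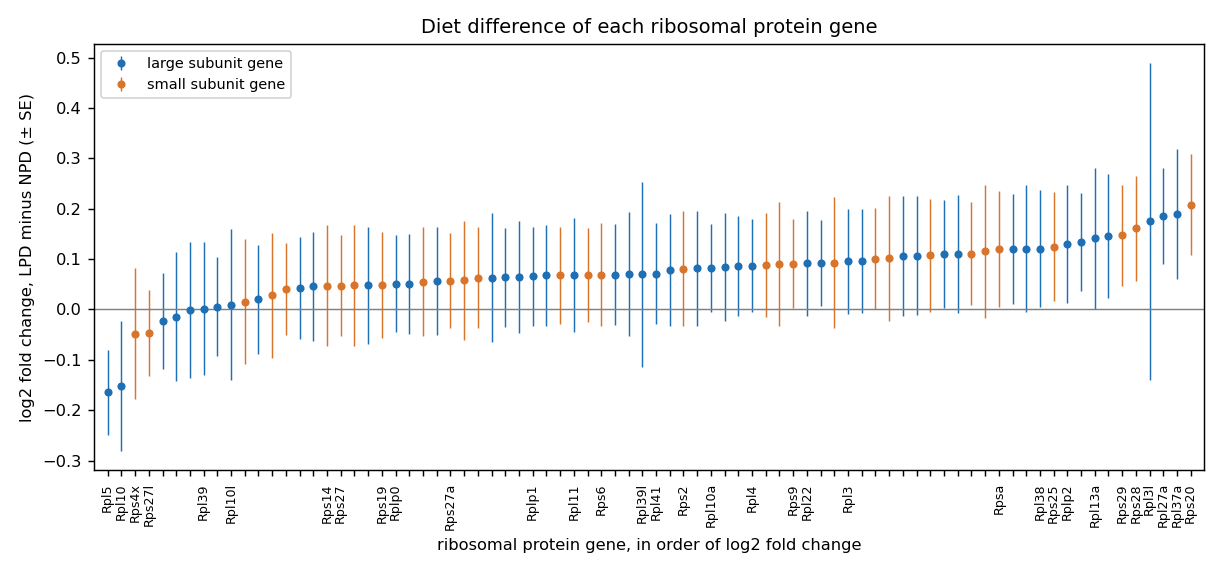
Log2 fold change (LPD minus NPD) of each of the 80 ribosomal protein genes with its SE from limma, in order of size, with large subunit genes in blue and small subunit genes in orange. Only genes named by rule carry a label. Most points lie between 0 and 0.2 with an SE near 0.1, from Rpl5 at -0.16 to Rps20 at 0.21.

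The members with the smallest p among those above 0 were Rps20, Rpl27a, Rps28 and Rps29. Rps20, in the head of the small subunit, had values of 18496, 15815, 17368, 17211 and 20072 in the LPD lines and 14633, 15774, 17979, 12988 and 15864 in the NPD lines. It was above all NPD lines in LPD lines 1 and 40 only, with a log2 fold change of 0.21 (SE 0.10, limma p = 0.0595, exact permutation p = 0.0714). Rpl27a, of the large subunit, had values of 6911, 6126, 6439.8, 6877 and 7543 in the LPD lines and 5146, 5997, 7082, 5570.2 and 6115 in the NPD lines. Its NPD line 21 exceeded every LPD line but line 40, and it had a log2 fold change of 0.19 (SE 0.10, limma p = 0.0741, exact permutation p = 0.0952). The adjusted limma p was 0.994 for all 4 of these genes. Rps28, near the mRNA exit of the small subunit, had values of 14021, 11016, 13282, 13050 and 14681 in the LPD lines and 10741, 11728, 13686, 10248 and 12741 in the NPD lines. LPD lines 1 and 40 were above all NPD lines and LPD line 4 was among the low lines, with a log2 fold change of 0.16 (SE 0.10, limma p = 0.147, exact permutation p = 0.159). Rps29, a zinc-binding protein of the small subunit, had values of 10498, 8469.9, 10334, 10106 and 10799 in the LPD lines and 8212, 9060.1, 10060, 7839 and 10252 in the NPD lines. Here LPD lines 1, 6 and 40 were above all NPD lines and line 4 was below 3 of them, with a log2 fold change of 0.15 (SE 0.10, limma p = 0.165, exact permutation p = 0.159). An unadjusted p under 0.05 appeared for Rps20 and Rps28 without LPD line 4, for Rps20 and Rpl27a without NPD line 21, and for Rpl37a without LPD lines 4, 6 and 40.
The members with the smallest p among those below 0 were Rpl5, Rpl10, Rps27l and Rps4x. Rpl5, which carries the 5S rRNA into the large subunit and with Rpl11 binds Mdm2, had values of 1281, 1049, 1091, 1188 and 1239 in the LPD lines and 1245, 1271, 1402, 1262 and 1365 in the NPD lines. LPD lines 4, 6, 20 and 40 were below every NPD line, LPD line 1 was above NPD lines 8, 15 and 36, and the gene had a log2 fold change of -0.16 (SE 0.08, limma p = 0.0726, exact permutation p = 0.0476). Rps27l, a paralog of Rps27 that p53 induces, had values of 4711, 4389, 4111, 4526 and 5092 in the LPD lines and 4397, 5189, 4847, 4208 and 4961 in the NPD lines, with a log2 fold change of -0.05 (SE 0.09, limma p = 0.590, exact permutation p = 0.548). Its highest and lowest lines differed by 1.26 times, the smallest ratio of any member.
Relative to the mean of the members in the same line, 2 genes separated the diets without overlap, against 0.711% of all genes on that scale. Subtracting their own mean lowered the median SD of the members from 0.17 to 0.068. The shares of all genes on this scale are therefore not a like background for the members. Rpl5 was lower in LPD lines by 0.24 on the log2 scale (SE 0.09, limma p = 0.0261, adjusted p = 0.997, exact permutation p = 0.00794), with every LPD line below every NPD line. It was the 1 member with an unadjusted p under 0.05 on this scale, against 4.03% of all genes (1.06% higher and 2.97% lower in LPD). Rps20 had a relative difference of 0.14 (SE 0.07, limma p = 0.0598, exact permutation p = 0.00794), with every LPD line above every NPD line. The exact p of 0.00794 is the smallest that these lines can give, and no member passed adjustment on this scale, where 0.0% of all genes did.
Near-identical copies bear on Rpl5 and on 13 other members. A copy was counted where another annotated gene matched a member at 95% identity or more over at least 80% of the shorter transcript and at least 200 bases. Such copies existed for 73 members in the annotation and for 65 members in the table, and in 14 members they held over 10% of the summed value. They held 95.3% for Rpl5, 94.5% for Rps12, 92.7% for Rpl12, 66.9% for Rpl27a, 49.8% for Rpl31, 44.4% for Rpl10 and 40.8% for Rps23, and between 11.3% and 24.1% for Rpl15, Rps16, Rpl27, Rpl36a, Rpl28, Rpl10a and Rps13. How the estimated counts were divided between a member and its copies is not given in the sources used here, so the levels of these rows are uncertain, and the part of that division in them was not tested.
The copies of Rpl5 had values of 26392, 23231, 24639, 24842 and 31770 in the LPD lines and 22915, 25007, 28205, 21916 and 24590 in the NPD lines, nearly all from Gm15500, a pseudogene at chr7:114705217-114706235 that matches Rpl5 with 100% identity. These copies were highest in LPD line 40 and NPD line 21, as most members were, whereas the row of Rpl5 itself was lower in LPD line 40 than in every NPD line. With the copies added, the log2 fold change of Rpl5 was 0.08 in place of -0.16, and its level per kb was 13002 in place of 606. For Rpl27a the sum gave 0.13 in place of 0.19 and for Rpl10 -0.05 in place of -0.15. Over all members, 75 were then above 0 and the median was 0.07, so the count over the members hardly depended on the copies while the 2 members that stood farthest below 0 did.

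**Figure D5:**
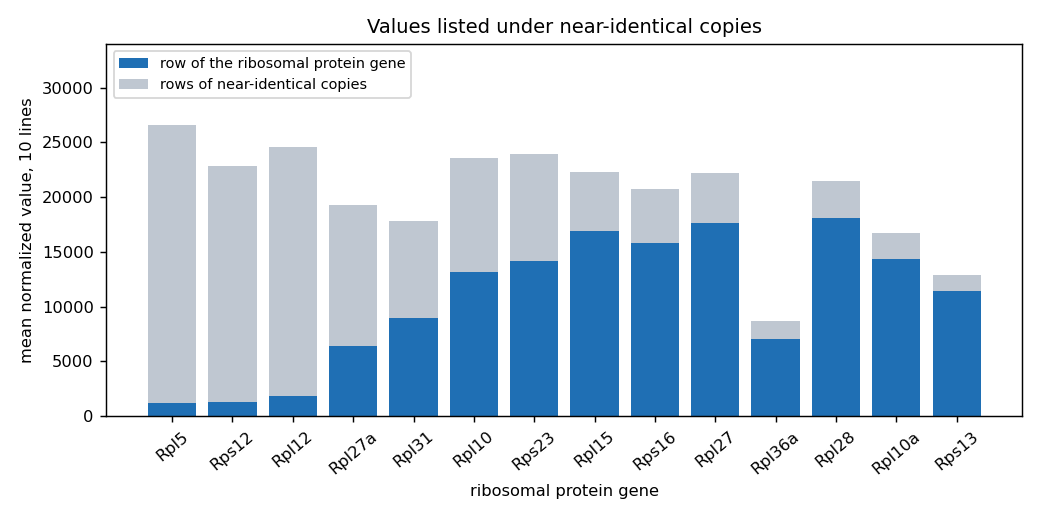
Mean normalised value over the 10 lines of the row of each ribosomal protein gene and, stacked on it, of the rows of its near-identical copies, for the 14 members whose copies held over 10% of the sum. The copies outweigh the gene's own row in Rpl5, Rps12, Rpl12 and Rpl27a.

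The X-linked members set themselves apart in 1 line. Rpl10, which is added late to the large subunit and is needed for the subunits to join, had values of 10957, 13176, 10951, 12643 and 14147 in the LPD lines and 11318, 18487, 14242, 12348 and 12994 in the NPD lines. Rps4x, a small subunit protein with a Y-linked relative in humans, had values of 22301, 20606, 21591, 23958 and 26613 in the LPD lines and 21289, 32611, 24119, 19897 and 22442 in the NPD lines. Rpl39, at the exit of the peptide tunnel, had values of 8257, 7993, 8466, 7676 and 9326 in the LPD lines and 7339.5, 11554, 9096, 6695 and 7694 in the NPD lines. In all 3, NPD line 15 was the highest of the 10 lines, and so it was in Rpl36a, the other X-linked member. The median deviation of the 4 X-linked members in NPD line 15 was 0.52, against 0.01 for the 76 autosomal members, and it was 0.46 for X-linked genes outside the members (93 with a mean of at least 1000). This is the line in which Ddx3y stood at 7.70, and whether the 2 have the same source was not tested. The log2 fold changes were -0.15 for Rpl10 (SE 0.13), -0.05 for Rps4x (SE 0.13) and 0.0019 for Rpl39 (SE 0.13). Without NPD line 15 they were -0.04, 0.07 and 0.12.
The paralogs Rpl3l, Rpl10l and Rpl39l were the 3 members that followed the common line pattern least. Rpl3l had values of 69.9, 75.2, 36.4, 52.8 and 50.2 in the LPD lines and 43.8, 29.0, 86.5, 63.1 and 39.4 in the NPD lines, against 29462 to 40536 for Rpl3, a protein that reaches towards the peptidyl transferase centre. NPD line 21 was highest and NPD line 15 lowest, at 2.99 times difference, the widest ratio among the members. Rpl10l, a copy of Rpl10 without introns, had values of 611, 674, 410.0, 704 and 455 in the LPD lines and 520.3, 525, 569, 589 and 571 in the NPD lines. LPD lines 1, 4 and 20 were above all NPD lines and lines 6 and 40 below all of them, so that the log2 fold change was 0.0097 (SE 0.15). Rpl39l had values of 566, 486, 289.8, 402 and 361 in the LPD lines and 414, 411, 472, 389 and 290.2 in the NPD lines, highest in LPD line 1 and lowest in LPD line 6 and NPD line 51. The log2 fold changes were 0.07 (SE 0.18) for Rpl39l and 0.17 (SE 0.31) for Rpl3l, each smaller than its SE. The pseudogene row Rps4l, named for its likeness to Rps4 and outside the members, had values of 6819.9, 7171, 6743, 8436 and 8756 in the LPD lines and 6346, 6995, 8458, 7217 and 8126 in the NPD lines, and a log2 fold change of 0.03 (SE 0.11).
Members of the large subunit with known particular roles overlapped between the diets. Rpl11, which binds Mdm2 with Rpl5, had values of 22862, 21257, 20235, 21209 and 27265 in the LPD lines and 18362, 22569, 25243, 19033 and 22557 in the NPD lines. LPD line 40 was highest, NPD line 8 lowest, and the log2 fold change was 0.07 (SE 0.11). The P stalk proteins Rplp0, Rplp1 and Rplp2 averaged 47704 ± 4879.9 in LPD lines and 45920 ± 2754 in NPD lines, 32507 ± 3014 in LPD lines and 31083 ± 3182 in NPD lines and 18727 ± 2129 in LPD lines and 17184 ± 2655 in NPD lines, as mean ± SD over 5 lines each. Their log2 fold changes were 0.05 (SE 0.10), 0.07 (SE 0.10) and 0.13 (SE 0.12) in that order, and only that of Rplp2 was larger than its SE. Rpl13a, which can leave the ribosome to silence the translation of inflammatory mRNAs, had one of the widest spreads, with values of 57029, 44166, 50513, 46221 and 66276 in the LPD lines and 45513, 43626, 58865, 39224 and 52114 in the NPD lines. LPD line 40 and NPD line 21 were highest, NPD line 36 lowest, and the log2 fold change was 0.14 (SE 0.14). Rpl37a, a small zinc-binding protein, had values of 13786, 11606, 11861, 17805 and 15281 in the LPD lines and 10520, 12995, 14429, 11115 and 12220 in the NPD lines and was highest in LPD line 20, where Rpl10l was the only other member to peak. Its log2 fold change was 0.19 (SE 0.13).
For Rpl3 the log2 fold change was 0.10 (SE 0.10), for Rpl10a 0.08 (SE 0.09), for Rpl22, whose paralog Rpl22l1 is held down by it, 0.09 (SE 0.10), and for Rpl38, needed for the translation of some Hox mRNAs, 0.12 (SE 0.12). Rpl4, whose extension lines the peptide tunnel, had the smallest SD over the lines at 0.11 on the log2 scale, with a log2 fold change of 0.09 (SE 0.09). Rpl41 stood at 0.07 (SE 0.10). LPD and NPD lines overlapped in each of these genes.
Small subunit members gave the same picture. Rps6, the substrate of the S6 kinases downstream of mTOR, had values of 31112, 29143, 27955, 30000 and 36359 in the LPD lines and 26870, 30958, 33667, 26347 and 29462 in the NPD lines. LPD line 40 and NPD line 21 were highest, NPD lines 36 and 8 lowest, and it had a log2 fold change of 0.07 (SE 0.10, limma p = 0.506, exact permutation p = 0.484). Rps19, mutated in Diamond-Blackfan anaemia, had values of 19176, 18258, 19037, 19026 and 22901 in the LPD lines and 18125, 18761, 22485, 15778 and 20363 in the NPD lines. Rpsa, related to the laminin receptor, had values of 47544, 45826, 46671, 46840 and 59300 in the LPD lines and 41640, 44860, 54495, 38389 and 47710 in the NPD lines. In both, LPD line 40 was apart from the other LPD lines, with log2 fold changes of 0.05 (SE 0.11) and 0.12 (SE 0.12). Rps14, on the platform of the small subunit, averaged 29029 ± 3547 in LPD lines and 28206 ± 4334 in NPD lines, and Rps27a, made as a fusion with ubiquitin, 16505 ± 1861 in LPD lines and 15827 ± 1290.5 in NPD lines (SD, n = 5 each). The log2 fold changes were 0.05 (SE 0.12) for Rps14, 0.06 (SE 0.09) for Rps27a, 0.12 (SE 0.11) for Rps25, which some viral and cellular internal entry sites need, 0.05 (SE 0.10) for Rps27, 0.09 (SE 0.09) for Rps9 and 0.08 (SE 0.11) for Rps2. All of these ranges overlapped between the diets.
Other genes of the pathway, from lists of genes outside the members, held 1 gene past an unadjusted p of 0.05. Of all genes tested, 5.02% passed that limit and 50.5% were above 0. Of 8 genes for subunit proteins or their relatives whose symbols the pattern leaves out, 6 were above 0 and 0 passed. Among the 8 were Rpl7l1 and Rps27rt, the latter a near-identical copy of Rps27. Rack1, a scaffold on the small subunit, stood at 0.10 (SE 0.09) and Fau at 0.13 (SE 0.11). Of 15 other TOP genes, 11 were above 0 and 0 passed, from Eef1b2, an elongation factor subunit, at 0.20 (SE 0.12) to Pabpc1, the poly(A) binding protein, at -0.09 (SE 0.10). Of 9 TOP regulators, 3 were above 0 and 0 passed, with Larp1 at -0.08 (SE 0.11), Mtor at -0.16 (SE 0.13) and Eif4ebp1, a repressor of cap binding that mTOR inactivates, at 0.16 (SE 0.10). Of 10 ribosomal protein chaperones, 6 were above 0 and 0 passed. Of 24 assembly and export factors, 15 were above 0 and 1 passed, Nop58, a core protein of box C/D RNPs, at 0.32 (SE 0.14, limma p = 0.046, adjusted p = 0.987, exact permutation p = 0.0794). Of 4 genes listed in connection with the 5S RNP (Mdm2, Mdm4, Trp53 and Rrm2b), 1 was above 0 and 0 passed. The medians of these lists ran from -0.09 to 0.06, beside 0.07 for the members and 0.0020 for all genes tested.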

How the data were processed

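The authors enriched mRNA, filtered reads for adaptors and quality and quantified transcripts on GRCm38 (cutadapt, Salmon and sleuth 0.30.0 in the submitters' processing notes). The values the authors deposited are a normalized signal, that is, estimated counts per gene scaled between lines, and how transcripts were summed to genes is not given in the sources used here. Of 20206 genes, 19891 matched GENCODE M21, and 0 columns lacked a line. Depth was estimated from the value of 1 read in genes with 1 transcript (tolerance 0.15).

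Values were analysed as log2(value + 1). Genes with a mean of at least 10 entered the test of limma (3.58.1, under R 4.3.3, with a mean-variance trend, no covariate, Benjamini-Hochberg over all genes), and single genes by exact permutation over 252 assignments. The limma step was tried on simulated data, with genes drawn independently and planted differences larger than those of the members. That trial therefore does not bear on small differences in genes that move together. The rest was done in Python 3.11.15, with figures from matplotlib 3.10.9 and tables from pandas 2.3.3, numpy 2.4.6 and scipy 1.17.1.

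Members, lists and rules were chosen with earlier results of these data known. Named members were the 4 with the smallest p in each direction, the 4 most and least variable of those with a mean of at least 100, the 3 highest and lowest per kb, those farthest from the member mean in a line, members with known roles, paralogs, and up to 4 genes per list. Rpl13, Rpl28, Rpl36a and the members with copies were named after their values were seen, and 1 member is counted but not reported by name here. Copies were found with BLAST. Alternatives were other pseudocounts, filters, scalings and limma settings, a Mann-Whitney test, other memberships and leaving out lines.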

Additional observations from a re-analysis of the deposited data

Results flagged for a closer look

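Of 160 groups of 5 lines (80 genes in each diet), 3 held a line far from its group by Dixon's criterion (gap over range above 0.71), and chance alone flags about 1 group in 20. Rps19 stood at 22901 in LPD line 40, with a gap of 0.783 of the range to the nearest LPD line. Rpsa stood at 59300 in LPD line 40, with a gap of 0.857. Rps29 stood at 8470 in LPD line 4, below the other LPD lines, with a gap of 0.727. LPD line 40 is the line in which 66 of 80 ribosomal protein genes had their highest value, and LPD line 4 is the shallowest library at 5848707 read equivalents.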

How the results depend on the processing

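No ribosomal protein gene reached an adjusted p under 0.1 in limma under any of the 25 alternative fits, and the exact Mann-Whitney test gave 0 members at an unadjusted p under 0.05, and 0 members were identical in value to another gene, so leaving such members out changed nothing. At an unadjusted p under 0.05, the count of members lower in LPD was 1 in place of 0 with lines scaled to the same total and with lines centred on the mean of the members (Rpl5 in both), and the count higher was 1 in place of 0 without LPD lines 4, 6 and 40 (Rpl37a). Apart from centring on the members, the share of all genes at that p is not given for the alternative fits or the Mann-Whitney test. The member counts under them therefore have no background beside them. With array weights, 1 gene of all had an adjusted p under 0.1 in place of 0. Over the 10 fits that left out 1 line each, the count of members higher ran from 0 to 2, the count lower from 0 to 1, the median log2 fold change of the large subunit from 0.017 to 0.13, that of the small subunit from 0.0095 to 0.12, the large minus small difference from -0.013 to 0.0028, and the genes with an adjusted p under 0.1 from 0 to 40, the 40 being without LPD line 40. Members above 0 numbered 73 in the reported fit, 56 after quantile normalisation, 67 with the same total, 71 with centring on the median of all genes, 75 with copies added, and 51, 63 and 64 without LPD line 40, NPD line 8 and NPD line 36. Among the 33 members named by rule, quantile normalisation reversed the sign of Rpl10l (-0.0011), Rpl39 (-0.028), Rpl4 (-0.010), Rpl41 (-0.011), Rplp0 (-0.061), Rps14 (-0.024) and Rps27 (-0.00085), the same total that of Rpl10l (-0.024) and Rpl39 (-0.032), centring on that median that of Rpl39 (-0.0059), and adding copies that of Rpl5 (0.079) and, outside those named by rule, of Rpl12 (-0.014 to 0.098). Leaving out a line reversed 10 of these 33 genes, with ranges of -0.074 to 0.12 for Rpl10l, -0.0022 to 0.13 for Rpl11, -0.076 to 0.12 for Rpl39, -0.046 to 0.19 for Rpl39l, -0.0080 to 0.38 for Rpl3l, -0.021 to 0.12 for Rps14, -0.018 to 0.11 for Rps19, -0.0016 to 0.10 for Rps27, -0.0084 to 0.10 for Rps27a and -0.11 to 0.067 for Rps4x. The causes were not tested. Leaving out the doubtful or shallow lines or the X-linked members, centring on the members and adding copies were chosen after seeing the data. No paired analysis was possible because the line numbers are not shared between the diets. With 5 lines per diet and an SE near 0.1, differences of the size seen in the members cannot be told from 0.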
